A study of Mus musculus with 8 samples.

Results

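The transcription factor genes Hnf4a, Hnf4g, Nr1h4, Maf and Esrrg, which act in the proximal tubule of the kidney, were followed in kidneys with and without a conditional knockout of Kdm1a. They were set by name, with no threshold on their values but with earlier results of these data known, and all 5 were found among the 49315 genes of the count table. Messenger RNA was sequenced from frozen mouse kidney, with 4 libraries labelled control and 4 labelled conditional knockout. Kdm1a encodes LSD1, a demethylase of histone H3 that acts in repressor complexes. The labels give neither the age, sex or strain of the animals, nor the recombinase that deletes the allele, so the cells that lost Kdm1a are not known. The extraction protocol calls the control tissue wild type. They also do not say whether the libraries of a group came from separate animals, and if they did not, the p values measure technical spread alone.

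The proximal tubule takes back most of the filtered glucose, amino acids, phosphate and protein, and its cells depend on mitochondrial oxidation. Hnf4a and Hnf4g are paralogous nuclear receptors that bind DNA as dimers and activate genes of mature epithelium in kidney, liver and gut. Nr1h4 encodes FXR, the bile acid receptor, which works with a retinoid X receptor as partner. Esrrg encodes an orphan nuclear receptor of the estrogen-related family that works with the coactivator Ppargc1a on mitochondrial genes, and it is also expressed in distal segments of the nephron. Maf encodes a large basic leucine zipper factor, which macrophages express as well.

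Transcripts of Hnf4a and Nr1h4 fell in the knockout to 0.209 and 0.221 times the control level by the fit, those of Esrrg and Hnf4g were lower without passing the test, and Maf was lower by 17.5% without passing it. The coordinates below are GRCm38, as in the count tables, and for all 5 genes they match those of GENCODE M21. RefSeq promoter windows (GRCm38.p6) run from 250 bases before a start site to 50 bases from it on, and they were at hand for 3 of the 5 genes: 2 windows for Hnf4a, 1 for Nr1h4 and 4 for Esrrg. The Nr1h4 window belongs to a start site inside the gene, whose 5′ end on the minus strand is at 89533585. Sequence around that end was not searched. The windows of these 3 genes were searched on both strands for short motifs of the factors in question. The windows of Hnf4a and Nr1h4, the 2 factors that passed the test, are shown with each motif match in capitals, 5′ to 3′ along the strand of the gene.
Hnf4a chr2:163506607-163506906, plus strand: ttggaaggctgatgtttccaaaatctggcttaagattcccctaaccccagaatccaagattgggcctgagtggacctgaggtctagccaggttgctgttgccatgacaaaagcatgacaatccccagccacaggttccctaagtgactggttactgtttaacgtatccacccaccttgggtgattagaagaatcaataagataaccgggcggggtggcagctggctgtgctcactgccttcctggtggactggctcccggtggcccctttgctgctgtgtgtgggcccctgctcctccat
Hnf4a chr2:163546905-163547204, plus strand: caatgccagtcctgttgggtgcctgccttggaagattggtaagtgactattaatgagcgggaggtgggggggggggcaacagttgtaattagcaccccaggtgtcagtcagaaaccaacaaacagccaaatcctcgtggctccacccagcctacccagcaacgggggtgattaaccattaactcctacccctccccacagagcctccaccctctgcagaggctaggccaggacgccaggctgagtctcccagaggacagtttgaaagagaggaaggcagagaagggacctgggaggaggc
Nr1h4 chr10:89506609-89506908, minus strand: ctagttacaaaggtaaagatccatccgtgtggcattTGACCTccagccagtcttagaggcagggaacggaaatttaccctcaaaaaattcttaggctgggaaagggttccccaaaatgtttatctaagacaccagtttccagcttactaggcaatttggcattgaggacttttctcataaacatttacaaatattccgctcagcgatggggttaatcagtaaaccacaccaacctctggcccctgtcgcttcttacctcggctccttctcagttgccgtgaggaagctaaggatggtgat
With the start site at 0, the Nr1h4 window held AGGTCA, the nuclear receptor motif, on the reverse strand from −214 (TGACCT as printed). Neither Hnf4a window held a match to a motif searched, nor did those of Esrrg. Of 32851 windows of this length over all genes, 16.3% held AGGTCA. The HNF4 core CAAAGTCCA, the estrogen-related receptor motif TCAAGGTCA (which contains AGGTCA), the FXR inverted repeat (2 opposed copies of AGGTCA with 1 base between) and the MAF core TGCTGAC were found in 0.475%, 0.423%, 0.00913% and 4.67% of all windows and in none of the 7 windows of these 3 genes. Such matches describe the sequence and are not binding sites.

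Libraries held from 19524945 to 28544511 counts. Kdm1a itself was at 113 ± 4.77 counts per 1000000 counts of the library (CPM) in controls and 93.6 ± 1.88 CPM in knockouts (mean ± SD, n = 4 each), and all knockouts lay below all controls. It changed by −0.27 on the log2 scale (SE 0.05, edgeR adjusted p 0.0194), a call lost in 5 of the 8 fits without 1 library. The 5 kidney epithelial genes Pax2, Pax8, Epcam, Cdh16 and Cdh1 were each above 100 CPM on average in both groups. Their log2 changes were 0.11, 0.03 and 0.03 for the first 3, −0.74 for Cdh16 (493 to 294 CPM, edgeR adjusted p 0.124) and −0.34 for Cdh1 (216 to 171 CPM, adjusted p 0.222). The summed level of 8 proximal tubule markers was 319 CPM in control replicate 2 and from 623 to 1290 CPM in the other controls. It was 198 CPM in knockout replicate 3 and from 31.3 to 101 CPM in the other knockouts, so these 2 libraries were the nearest of the 2 groups to each other. Y-linked transcripts were present in 5 libraries and near 0 in control replicate 2 and knockout replicates 1 and 4. Of 18485 genes tested across the 2 groups with edgeR's quasi-likelihood test, 14.9% were called at an adjusted p under 0.05, 8.27% lower and 6.61% higher in the knockout.

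Hnf4a (ENSMUSG00000017950, chromosome 2, 163506808 to 163572910, plus strand) was measured at 109.8, 63.6, 122 and 163 CPM in control replicates 1 to 4. The knockouts had 29.6, 3.31, 35.2 and 27.4 CPM in the same order. Every knockout was below every control, the highest knockout being replicate 3 and the lowest control replicate 2, and the lowest control was 1.81 times the highest knockout. The group means were 115 ± 40.8 and 23.9 ± 14.1 CPM (mean ± SD, n = 4 each), a reduction of 79.2%. The log2 fold change was −2.26 (SE 0.57, edgeR adjusted p 0.0336). Knockout replicate 2, with 66 counts of Hnf4a against at least 701 in the other knockouts, stood at the bottom, yet the change without it was −1.90 with an adjusted p of 0.0296. Of the 8 fits without 1 library, 5 did not call it, and the largest adjusted p, 0.0939, came without knockout replicate 4. It was also lost with Y-linked transcripts as a covariate (−2.23, adjusted p 0.0607) and among the 5 libraries with Y-linked transcripts (−2.73, adjusted p 0.0670). Counts were summed over all exons, so transcripts from the upstream and downstream start sites of the gene were not separated. The antisense gene Hnf4aos shared no exon base with it and had 108 counts over the 8 libraries, against 13204 of Hnf4a.

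Nr1h4 (ENSMUSG00000047638, chromosome 10, 89454234 to 89533585, minus strand) was less abundant and followed the same order of libraries. The controls had 15.4, 9.18, 18.7 and 18.8 CPM and the knockouts 4.98, 0.351, 5.74 and 2.48 CPM for replicates 1 to 4. The groups did not overlap, with control replicate 2 again the lowest control and knockout replicate 2, at 7 counts, the lowest knockout. From 15.5 ± 4.51 to 3.39 ± 2.46 CPM (n = 4 each), the log2 fold change was −2.18 (SE 0.59, edgeR adjusted p 0.0408). This call was lost in the same 5 fits without 1 library as that of Hnf4a, and the adjusted p reached 0.118 when knockout replicate 4 was missing. It was lost as well with the Y-linked covariate (−2.11, adjusted p 0.0701), among the libraries with Y-linked transcripts (−2.46, adjusted p 0.0850) and with adrenal transcripts as a covariate (−2.41, adjusted p 0.0668). Hnf4a and Nr1h4 were the 2 of 5 factors called, where 8.27% of all tested genes were called lower. They were also the 2 whose groups did not overlap with the knockouts below, as was the case for 9.58% of all tested genes. With 7 counts in knockout replicate 2, Nr1h4 would not have passed the filter on low counts by its knockouts alone.

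**Figure D1:**
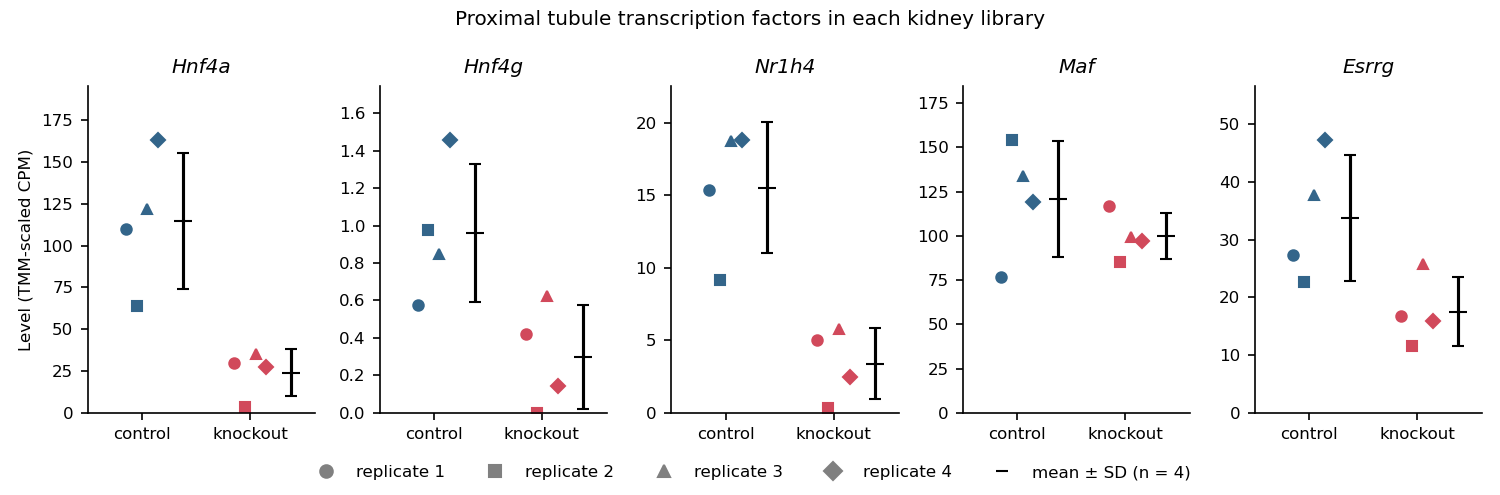
Level of each factor in every library, in TMM-scaled CPM on a linear axis that starts at 0; colours and positions separate control from knockout, symbols the replicates, and bars show mean ± SD (n = 4). The groups are apart for Hnf4a and Nr1h4, knockout replicate 3 reaches into the controls for Hnf4g and Esrrg, and control replicate 1 is the lowest library for Maf.

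Esrrg (ENSMUSG00000026610, chromosome 1, 187608791 to 188214885, plus strand) was at 27.4, 22.6, 37.8 and 47.2 CPM in the controls and 16.7, 11.5, 25.7 and 15.9 CPM in the knockouts. The groups overlapped through a single pair, since knockout replicate 3 lay above control replicate 2. The means were 33.7 ± 11.0 and 17.5 ± 5.98 CPM (n = 4 each), and the change of −0.95 (log2, SE 0.28) had an edgeR adjusted p of 0.0523, just above the threshold. The gene was called by DESeq2 (−0.95, adjusted p 0.00630) and by limma-voom (−1.10, adjusted p 0.00333), and by edgeR without control replicate 2 (−1.10, adjusted p 0.0131) or without knockout replicate 3 (−1.18, adjusted p 0.0245). Markers of the thick ascending limb, a distal segment, summed to between 232 and 1084 CPM in controls and between 14.4 and 312 CPM in knockouts. Of these 6 markers 4 were called lower (8.27% of all tested genes), among them Umod and Kcnj1. Their part in the level of Esrrg was not tested.

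Hnf4g (ENSMUSG00000017688, chromosome 3, 3508030 to 3658052, plus strand) was close to the limit of detection. Controls had 14, 21, 21 and 32 counts, or 0.574, 0.974, 0.848 and 1.45 CPM. Knockouts had 10, 0, 18 and 4 counts, or 0.422, 0, 0.623 and 0.144 CPM, and the 0 of knockout replicate 2 allows a level of up to 0.151 CPM for counting error alone. The groups overlapped, as knockout replicate 3 exceeded control replicate 1. The log2 fold change of −1.62 (SE 0.67, edgeR adjusted p 0.120) did not pass the test. The gene was called by limma-voom (−2.32, adjusted p 0.0213) and when control replicate 2 and knockout replicate 3 were both left out (−2.27, adjusted p 0.0382).

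Maf (ENSMUSG00000055435, chromosome 8, 115682942 to 115707794, minus strand) was abundant in every library. It was measured at 76.5, 154, 134 and 119 CPM in the controls and at 117, 85.2, 99.4 and 97.3 CPM in the knockouts. The knockouts lay inside the range of the controls, and control replicate 2, low for Hnf4a, Nr1h4 and Esrrg, was the highest library for Maf. Means of 121 ± 32.8 and 99.7 ± 13.0 CPM (n = 4 each) gave a log2 fold change of −0.28 (SE 0.19, edgeR adjusted p 0.325). In none of the alternative fits was Maf called, the smallest adjusted p being 0.0842. Of 7 macrophage markers 3 were called higher (6.61% of all tested genes) and 0 lower, namely C1qa, Mrc1 and Lyve1. The other 4 were not called: C1qb was at 0.44, Cd68 at 0.30, Adgre1 at 0.03 and Csf1r at −0.40. The summed level of the 7 markers was 108 to 132 CPM in controls and 150 to 183 CPM in knockouts. Their part in the Maf level was not tested. The predicted antisense gene that shares 440 exon bases with Maf had 0 counts in all libraries, which allows up to 3 counts in each.

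Compared per kilobase of transcript (RPKM, with TMM-scaled library sizes), Hnf4a had the highest mean of the 5 genes in controls, 23.7 ± 8.46, followed by Maf at 14.7 ± 3.98. Nr1h4 came next at 6.73 ± 1.96, then Esrrg at 5.43 ± 1.77, and Hnf4g was far below at 0.366 ± 0.140 RPKM (n = 4 each). The control ranges of Hnf4a and Maf overlapped, as did those of Nr1h4 and Esrrg, while Maf lay above Nr1h4 and Hnf4g below Esrrg in every control. In knockouts Maf led at 12.1 ± 1.57 RPKM, above Hnf4a in every library. Hnf4a followed at 4.95 ± 2.92, Esrrg at 2.81 ± 0.963, Nr1h4 at 1.47 ± 1.07 and Hnf4g at 0.113 ± 0.106 RPKM, and each of these ranges overlapped the next. The mean of Hnf4a was 1.62 times that of Maf in controls and 0.410 times in knockouts.

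Levels of 2 factors were then compared within each library, after their values had been seen, as log2 ratios of CPM for the 4 factors with a mean of at least 1 CPM. The CPM of Hnf4a was 7.15, 6.93, 6.51 and 8.68 times that of Nr1h4 in the controls and 5.94, 9.43, 6.13 and 11.0 times in the knockouts. This ratio overlapped between the groups, with log2 means of 2.86 ± 0.18 and 2.97 ± 0.45 (n = 4 each, exact two-sided permutation p = 0.714, adjusted p 0.714 over 6 pairs). Against Maf the log2 ratio of Hnf4a went from −0.11 ± 0.83 to −2.50 ± 1.47, and against Esrrg from 1.74 ± 0.21 to 0.07 ± 1.25. For Nr1h4 it went from −2.97 ± 0.76 to −5.47 ± 1.71 against Maf and from −1.12 ± 0.24 to −2.91 ± 1.47 against Esrrg. In these 4 pairs the groups did not overlap, each with an exact permutation p of 0.0286, the smallest that 4 against 4 libraries allow, and an adjusted p of 0.0429. As a description, the change of Hnf4a and of Nr1h4 was larger than that of Maf and of Esrrg in the same libraries. The 4 pairs share libraries and factors and were compared with these changes already known, so they are not separate support. Maf against Esrrg went from 1.85 ± 0.64 to 2.56 ± 0.43 (exact permutation p = 0.114, adjusted p 0.137).

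The same 4 factors were set against the summed CPM of the 8 proximal tubule markers of their own library. In whole kidney fewer cells of a type and less RNA per cell cannot be told apart. This ratio does not separate them for any factor, because the markers were themselves lower in the knockouts. The log2 ratio of Hnf4a to the markers was −2.65 ± 0.36 in controls and −2.31 ± 0.72 in knockouts (n = 4 each, exact permutation p = 0.400, adjusted p 0.533 over 4 factors). For Nr1h4 it was −5.52 ± 0.51 and −5.28 ± 0.94 (exact permutation p = 0.657, adjusted p 0.657). Both ratios overlapped between groups, knockout replicate 1 being the highest library and knockout replicate 2 the lowest for each. The ratio of Maf went from −2.55 ± 1.15 to 0.19 ± 1.01, and that of Esrrg from −4.40 ± 0.55 to −2.37 ± 0.65. For these 2 the ranges were apart, with an exact permutation p of 0.0286 each, the smallest possible here. Their adjusted p of 0.0571 missed the threshold, and it is the lowest that 2 such values among 4 factors can give. All 8 markers were themselves called lower, so a factor that falls less than they do must rise in this ratio. The ratios of Maf and Esrrg therefore restate the fall of the markers.

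**Figure D2:**
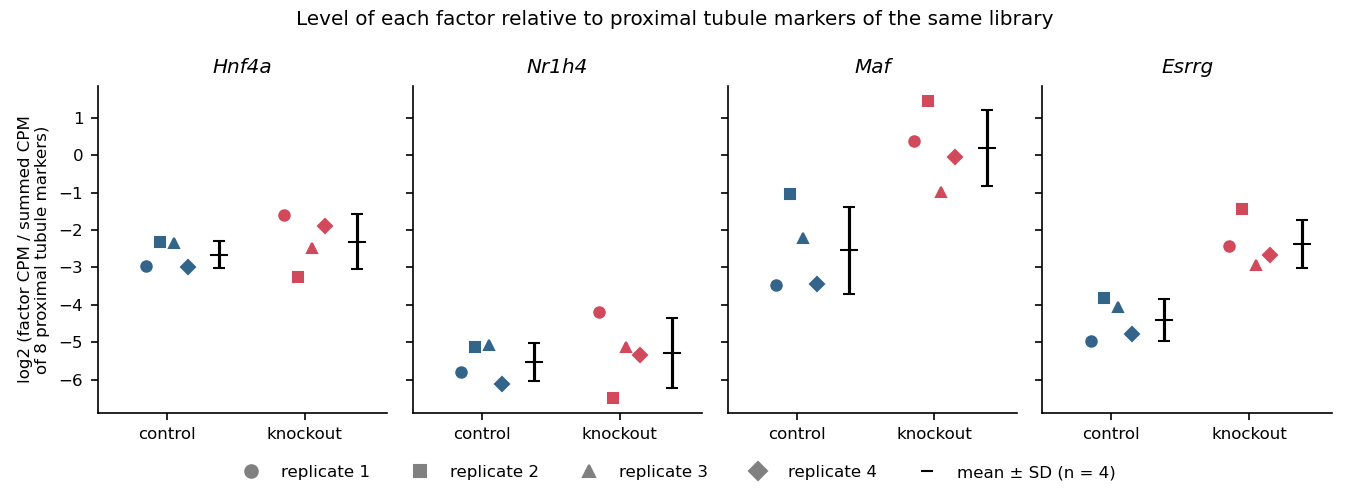
Log2 ratio of each factor's CPM to the summed CPM of 8 proximal tubule markers in the same library, by group; symbols are replicates and bars mean ± SD (n = 4). The groups overlap for Hnf4a and Nr1h4, while all knockouts lie above all controls for Maf and Esrrg.

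Among 28 genes that carry out proximal tubule work, 27 were tested, and 23 of these were called lower in the knockout and 0 higher, where 8.27% of all tested genes were called lower. Their median log2 fold change was −2.97, against 0.00 over all tested genes and −1.62 over the 5 factors. Pck1, which encodes a key enzyme of gluconeogenesis, had 171, 44.8, 142 and 191 CPM in controls and 11.1, 4.27, 10.3 and 12.1 CPM in knockouts (log2 fold change −3.85, SE 0.48, edgeR adjusted p 0.00724). Gatm, for the first enzyme of creatine synthesis, went from 95.8 ± 47.3 to 11.9 ± 5.82 CPM (−2.99, adjusted p 0.0110). Slc3a1, for a subunit of a cystine transporter, went from 47.6 ± 33.5 to 2.53 ± 1.51 CPM (−4.20, adjusted p 0.0130), and Ttc36 from 64.3 ± 39.5 to 4.01 ± 2.83 CPM (−3.97, adjusted p 0.0120). The 4 tested genes that did not pass were Slc22a12, Slc7a7, Slc7a8 and Dpep1, named after their values were seen, at −2.65, −0.74, −0.86 and −0.39. Pck1 was called in all 8 fits without 1 library, and Gatm, Slc3a1 and Ttc36 in all but that without knockout replicate 4. The list includes all 8 proximal tubule markers, each called lower. Miox, Slc5a2, Slc5a12, Slc22a6 and Slc13a3 would not have passed the low-count filter on their knockouts alone. They had 3, 6, 6, 8 and 8 counts in knockout replicate 2. The number of genes called lower in this list depends in part on such genes. Slc5a2, Slc5a12 and Slc22a6 are among the 8 markers. Between 1 gene, without knockout replicate 4, and 26 were called in the fits without 1 library. Counts of 9, 11, 11 and 7 came without control replicates 1, 3 and 4 and knockout replicate 1. Calls over all tested genes fell in those fits too, from 2751 in the full fit to 536, 374, 695 and 567 in that order. Without knockout replicate 4 they fell to 153.

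Markers of other kidney cells moved in the same libraries, and their part in the results for the factors and the tubule genes was not tested. The calls named here were picked after their values were seen. Podocyte markers, of the filter of the glomerulus, summed to between 184 and 410 CPM in controls and between 71.2 and 172 CPM in knockouts, without overlap. Of these 4 markers 2 were called lower, Nphs1 (−1.92, edgeR adjusted p 0.0300) and Podxl (−1.13, adjusted p 0.0300), where 8.27% of all tested genes were. Among 4 tested markers of the distal convoluted tubule, Slc12a3, its sodium chloride cotransporter, and Trpv5, a calcium channel, were called lower (−2.80 and −2.66, edgeR adjusted p 0.0190 and 0.0172). Trpm6 and Calb1 of that segment were at 0.22 and 0.25 without a call, and the summed level of its markers overlapped between the groups. The summed levels of collecting duct principal and intercalated cell markers also overlapped, with list medians of −0.70 and −1.26. Of 5 markers each, the endothelial Emcn was called lower (−0.77, edgeR adjusted p 0.0382), as were Cited1 and Meox1 of nephron progenitors (−1.64 and −1.45). The other progenitor markers went the other way without a call, Six2 at 0.47, Osr1 at 0.35 and Eya1 at 0.19. The summed level of progenitor markers overlapped between the groups, at 263 to 448 CPM in controls and 264 to 411 CPM in knockouts. Of 5 fibroblast markers 1 was called higher, Pdgfra (0.90, edgeR adjusted p 0.00575), where 6.61% of all tested genes were. The other 4 were not called: Col1a1 was at 0.69, Dcn at 0.56, Col3a1 at 0.42 and Pdgfrb at −0.06.

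Of 11 genes tied to the bile acid receptor, 6 passed the filter on low counts, and 4 of these were called lower (8.27% of all tested genes) and 0 higher. The 4 encode transporters. Abcc2, an exporter of organic anions, was at 18.8, 5.43, 9.97 and 20.5 CPM in controls and 2.03, 0.904, 2.11 and 1.26 CPM in knockouts, with no overlap (log2 fold change −3.10, SE 0.46, edgeR adjusted p 0.0109). Slc51a and Slc51b, the subunits of the basolateral bile acid exporter, changed by −2.94 (adjusted p 0.0351) and −3.75 (adjusted p 0.0128). Slc10a2, the apical bile acid importer, went from 2.46 ± 1.89 to 0.106 ± 0.0692 CPM (−4.54, adjusted p 0.0164). Slc51a, Slc51b and Slc10a2 passed the low-count filter only because of the controls, the group in which they are high. Their knockout counts were 5, 7, 23 and 6, then 10, 2, 25 and 10, then 2, 4, 3 and 1. The number of genes called lower in this list depends on that. Nr0b2, the corepressor gene that FXR activates in liver, was too low to be tested, at 0.205, 0.185, 0.0807 and 0.455 CPM in controls and 1.56, 0.0502, 0.0346 and 0.0360 CPM in knockouts. Knockout replicate 1 had 37 counts and lay above every control, while the other knockouts had 1 count each and lay below every control. Fgf15 (−1.06, adjusted p 0.1003) and Abcb4 (0.77, adjusted p 0.103) did not pass. The call of Slc51a was lost with the replicate number as a block (−2.66, adjusted p 0.0588), with the adrenal covariate and in 6 of 8 fits without 1 library, while Abcc2 and Slc51b kept theirs in 7 such fits and Slc10a2 in 4 of the 6 in which it could be tested. Without knockout replicate 4, 0 genes of the list were called, and 2 were called without control replicate 1, control replicate 3 or knockout replicate 1. Calls over all tested genes fell in the same fits, as given for the tubule genes.

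All 22 genes listed for the estrogen-related receptors were tested, of which 17 were called lower (8.27% of all tested genes) and 0 higher, with a median log2 fold change of −0.83. Most encode mitochondrial enzymes. Sdhb, a subunit of succinate dehydrogenase, had 211, 137, 224 and 255 CPM in controls and 116, 102, 133 and 111 CPM in knockouts (−0.84, SE 0.17, edgeR adjusted p 0.0207). Mdh2, mitochondrial malate dehydrogenase, changed by −0.77 (adjusted p 0.0218) and Cox6c, a subunit of cytochrome oxidase, by −0.56 (adjusted p 0.0183). Cpt1b, for mitochondrial uptake of fatty acids, changed by −2.32 (adjusted p 0.0153). Cpt1b kept its call in 6 of the 8 fits without 1 library, Cox6c in 3 and Sdhb and Mdh2 in 2. The list also holds Umod, Kcnj1 and Slc12a1 of the thick ascending limb, at −5.52, −2.82 and −2.42. Umod, at 12, 1, 369 and 44 counts in the knockouts, would not have passed the low-count filter on these alone. Slc12a1 was not called (edgeR adjusted p 0.131). The count fell to 8 with the adrenal covariate, to 0 without control replicate 3 or knockout replicate 4, to 1 without control replicate 1, knockout replicate 1 or knockout replicate 2, and to 2 without control replicate 4. Calls over all tested genes fell as well, from 2751 to 1349 with the adrenal covariate, 374 without control replicate 3 and 153 without knockout replicate 4.

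**Figure D3:**
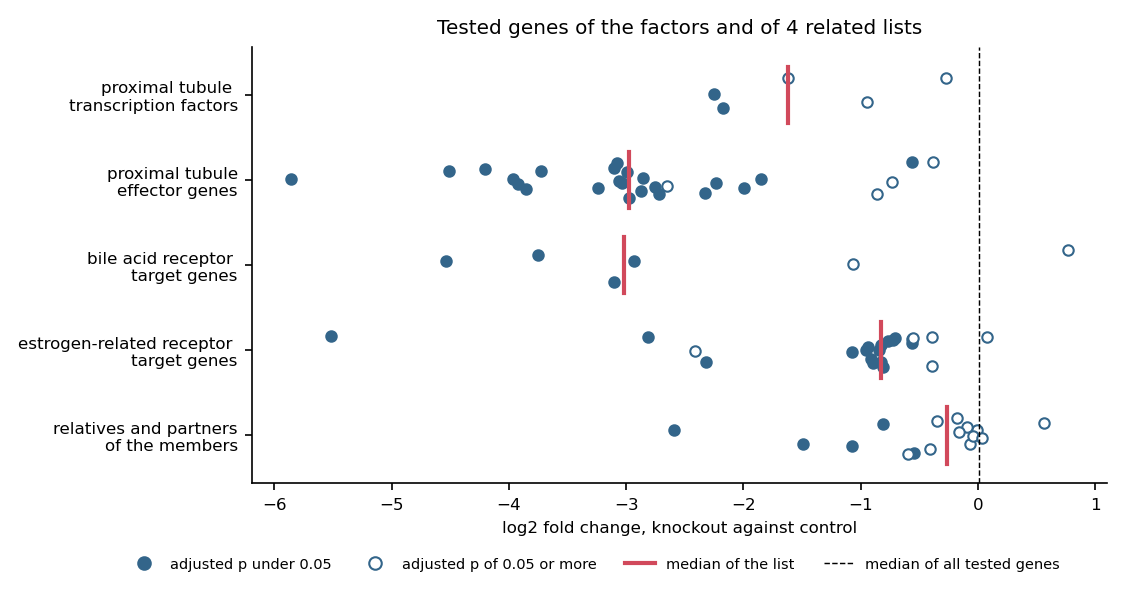
Log2 fold change of every tested gene of the 5 factors and of 4 related gene lists; filled points have an edgeR adjusted p under 0.05, red bars are list medians and the dashed line is the median of all tested genes. Tubule and bile acid genes centre near −3 (medians −2.97 and −3.02), estrogen-related receptor genes at −0.83.

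Relatives and partners of the factors were lower in part. Of 19 such genes 16 were tested, 5 were called lower (8.27% of all tested genes) and 0 higher, and the median log2 fold change was −0.27. Esrra and Ppargc1a are also in the list for the estrogen-related receptors, so their calls are counted in both lists. In the estrogen-related family, Esrrb went from 25.7 ± 13.0 to 4.22 ± 2.97 CPM (−2.59, SE 0.51, edgeR adjusted p 0.0193) and Esrra from 49.1 ± 16.7 to 23.3 ± 7.02 CPM (−1.07, SE 0.29, adjusted p 0.0382). Per kilobase, Esrra led the family at 19.3 RPKM in controls and 9.16 RPKM in knockouts, and Esrrb stood at 4.25 and 0.697 RPKM. Their coactivator gene Ppargc1a changed by −0.81 (adjusted p 0.0394). Ppara, a receptor of fatty acid oxidation, changed by −1.49 (adjusted p 0.0473) and Tfeb, of lysosome formation, by −0.54 (adjusted p 0.0413). Esrrb kept its call in 3 of the 8 fits without 1 library, and Esrra, Ppargc1a, Ppara and Tfeb in 2 each. With the Y-linked or the adrenal covariate, Esrrb was still called and the other 4 were not.

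The dimer partners of Nr1h4 did not pass the test: Rxra was at −0.01 (SE 0.10, edgeR adjusted p 0.948), Rxrb at −0.09 (adjusted p 0.326) and Rxrg, near 1 CPM, at 0.56 (adjusted p 0.141). Among its closest relatives, Nr1h2 and Nr1h3 were at −0.07 and −0.60 (adjusted p 0.590 and 0.0835), and Nr1h5 was not tested. In the Maf family, Mafa was not tested, at 0.172 CPM in controls and 0.118 CPM in knockouts, and Maff was at −0.41, Mafk at −0.35 and Mafg at −0.04, none of them called. Pax8, which marks the nephron lineage as a whole, was at 0.03 (SE 0.07, adjusted p 0.762). Between 0 and 6 of these relatives and partners were called in the fits without 1 library: 0 without control replicates 1 or 3 or knockout replicates 1, 2 or 4, and 1 without control replicate 4. The count was 1 with the Y-linked or the adrenal covariate, 3 in the libraries with Y-linked transcripts and 8 with limma-voom. Calls over all tested genes moved too, from 2751 to 2068 with the Y-linked covariate, 1349 with the adrenal covariate and 8302 with limma-voom. Those without 1 library are given with the tubule genes.

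**Figure D4:**
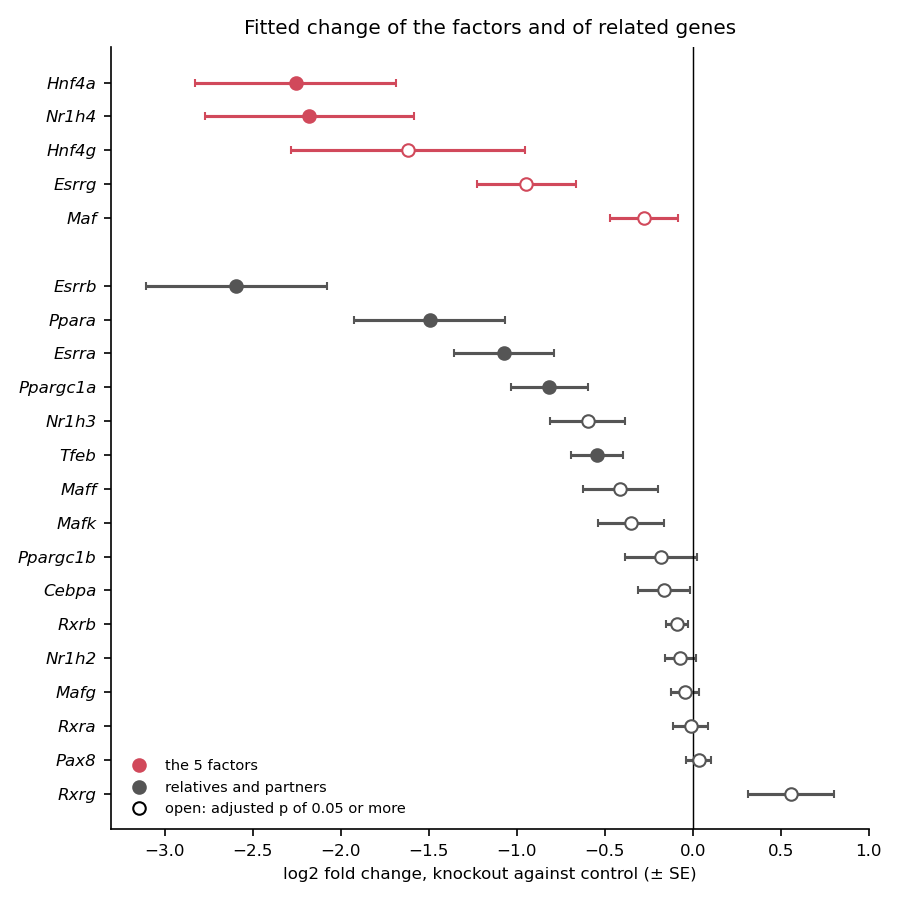
Fitted log2 fold change, knockout against control, with its standard error, for the 5 factors in red and 16 tested relatives and partners in grey; open points have an edgeR adjusted p of 0.05 or more. Values run from −2.59 for Esrrb to 0.56 for Rxrg, and Maf lies at −0.28.

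Genes with the most similar pattern were taken from those with a mean of at least 1 CPM by Pearson's r of log2 CPM over the 8 libraries, as a description. The points share the libraries and the genotype contrast. For Hnf4a they were Keg1 (r = 0.994), AI314278 (0.994) and Aspa (0.989), and Spearman's rho was 0.952, 1 and 0.976. For Nr1h4 they were AI314278 (0.992), Hnf4a itself (0.988) and Prodh2 (0.984). For Esrrg they were Hbegf (0.994), Tmem178 (0.994) and Tmem88 (0.994). Values were lower for Maf, with Snx20 (0.945), Zfp697 (0.919) and Tnfrsf13b (0.909). For Hnf4g, Pik3r6 (0.981), Cd93 (0.974) and Prex2 (0.969) ranked first, but with 120 counts over all libraries that pattern is imprecise.

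Other tissues could lie in a dissected kidney. Adrenal cortex markers summed to between 11.3 and 140 CPM in controls and to 2567, 13.7, 16.0 and 273 CPM in knockout replicates 1 to 4. Liver markers, of a tissue that expresses Hnf4a and Nr1h4 strongly, summed to between 24.9 and 101 CPM in controls. In knockout replicates 1 to 4 they summed to 160, 14.3, 15.7 and 135 CPM. Alb was at 3.52 to 7.09 CPM in controls and at 89.3, 1.71, 2.35 and 82.4 CPM in these knockouts. Ttr was at 10.2 to 81.4 CPM in controls and 0.602 to 4.84 CPM in knockouts. Of 6 tested liver markers Apoa1 was called higher (6.61% of all tested genes) and Ttr lower (8.27%). Their part in the levels of the 5 factors was not tested beyond the adrenal covariate, with which Hnf4a changed by −2.57 (edgeR adjusted p 0.0483).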

How the data were processed

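Frozen mouse kidneys were measured by sequencing of polyadenylated RNA in 4 control and 4 conditional knockout libraries, grouped by their titles. Per the submitters' processing notes, Trimmomatic 0.36, STAR 2.5.2b, featureCounts of Subread 1.5.2 and DESeq2 were used with build GRCm38, and no order, strand setting or annotation release is given in the sources used here. The authors deposited whole-number counts per gene without normalization, with a gene length in bases in a further column, per the file headers. The table of the whole series and the tables per library differed in 0 cells. Library totals ranged from 19524945 to 28544511 counts, so 1 count stood for 0.0346 to 0.0502 CPM.

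Symbols (GENCODE M21) were matched for 48970 of 49315 genes. Counts were scaled by TMM, kept with filterByExpr (18485 genes) and compared over all 8 libraries, without covariates, using edgeR 4.0.16 (quasi-likelihood F test, R 4.3.3). Adjustment was by Benjamini-Hochberg over all tested genes, and an adjusted p under 0.05 is a call. All 5 factors passed the filter. It asks for enough counts in 4 libraries, so the controls alone could pass a gene. Hnf4g, with knockout counts of 10, 0, 18 and 4, would not have passed on its knockouts alone. The same holds for Nr1h4, with knockout counts of 118, 7, 166 and 69. Standard errors were derived from the F statistics. Ratios within a library were compared by exact two-sided permutation over 70 assignments, with no pseudocount. Genes were named by rule: the 5 factors, up to 4 called genes with the smallest adjusted p of each list, relatives in full where a family is described, and the 3 genes most like each factor. The factors and the lists were chosen with earlier results of these data known. A few genes of the lists are not reported here and were left out of the list counts, for reasons unrelated to their values. Alternatives were DESeq2 size factors, DESeq2 1.42.0, limma-voom (limma 3.58.1), other filters, the replicate number as a block, Y-linked and adrenal covariates, TPM, and fewer libraries. The comparisons within a library were added after the data were seen. Without strand, reads of overlapping genes cannot be told apart.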

Additional observations from a re-analysis of the deposited data

How the results depend on the processing

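With every alternative the log2 fold changes of all 5 factors stayed negative. Without 1 library they ran from −2.48 to −1.90 for Hnf4a (called in 3 of 8 fits), −2.54 to −1.82 for Nr1h4 (3 of 8), −1.18 to −0.75 for Esrrg (2 of 8), −2.26 to −1.26 for Hnf4g (0 of 8) and −0.43 to −0.14 for Maf (0 of 8). Calls over all genes, 2751 in the full fit, then ran from 153 (without knockout replicate 4) to 7084 (without control replicate 2), and those of the lists from 1 to 26 (tubule genes), 0 to 4 (bile acid genes), 0 to 19 (estrogen-related receptor genes) and 0 to 6 (relatives). All genes called numbered 4506 with DESeq2, 8302 with limma-voom, 1349 with the adrenal covariate and 7903 without both control replicate 2 and knockout replicate 3.

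Hnf4a was no longer called with the Y-linked covariate (−2.23) and in the Y-linked libraries alone (−2.73), and Nr1h4 in both (−2.11 and −2.46) and with the adrenal covariate (−2.41). Esrrg gained a call with DESeq2 (−0.95), limma-voom (−1.10), no filter (−0.96), the replicate block (−0.95, adjusted p 0.0146) and without both libraries (−1.35). Hnf4g gained one with limma-voom (−2.32) and without both libraries (−2.27). The count was 8 for estrogen-related receptor genes with the adrenal covariate, and for relatives 8 with limma-voom, 1 with either covariate and 3 in the Y-linked libraries alone. Why calls were gained or lost in these fits was not tested. Hnf4g was not tested under the filter at a mean of 1 CPM, and the order of levels was the same in TPM. Same-numbered libraries deviated from their group means with correlations of −0.11, 0.33, 0.23 and −0.06, so the numbers were not taken as pairs, and the block gave 3229 calls. Depth limits the level of Hnf4g in a single library, at 32 counts or fewer, while its SE (0.67) was near that of Hnf4a (0.57).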
